A study of Mus musculus with 4 samples.

Results

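The cells described here are 1434 barcodes of the mouse telencephalic midline at embryonic day E11.5 that carry a cortical hem signature, 811 in the control library and 623 in the gof library, out of 14555 E11.5 barcodes kept and 27196 kept over all 4 libraries of the series. A barcode was a member when it had at least 1000 genes, at most 10% mitochondrial UMIs, and 1 or more UMI of at least 3 of the 6 genes Wnt3a, Wnt9a, Rspo1, Rspo2, Lmx1a and Wnt8b, and when it had no UMI of the 5 genes Fgf8, Fgf17, Six3, Notum and Dkk1. The members were thus chosen by their measured UMIs of these genes, so the levels of these 11 genes, and any contrast of members with other barcodes, are given as descriptions. The rule also removes barcodes in which the Wnt feedback genes Notum and Dkk1 were read, which bears on every Wnt value below.

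Both groups carried Lmx1aCre, a Cre recombinase driven by Lmx1a, and Ai9, a reporter allele that makes tdTomato after Cre has acted. The gof group carried b-cat gof as well, an altered beta-catenin allele whose changed part the labels do not name. Each E11.5 group was 1 single-cell library (10x 3' chemistry) from the pooled midline of 5 male embryos, with both hemispheres, so a pool has no replicate and no test between groups was possible. Differences below compare 2 libraries. The tissue was dissected around the hem and includes Cajal-Retzius cells and a portion of the hippocampal primordium, and Lmx1aCre also acts outside the hem, in other cells that express Lmx1a.

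The cortical hem is a strip of neuroepithelium at the medial edge of the cortical primordium, between the future hippocampus and the choroid plexus. It secretes Wnt and BMP proteins, patterns the hippocampus next to it, and gives rise to many Cajal-Retzius neurons, the early reelin-secreting cells of the cortical surface. Secreted Wnt proteins act through Frizzled and Lrp receptors to stabilise beta-catenin, which enters the nucleus and switches on targets with Tcf and Lef factors. R-spondins raise the response by protecting the receptors, and several targets, such as Axin2, Nkd1, Notum and Dkk1, feed back to dampen the signal.

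Levels are UMIs summed over all member barcodes of a library and scaled to the total of the set (CPM) with exact 95% Poisson intervals, shares have exact 95% Clopper-Pearson intervals, and both cover counting error only. UMIs count the 3' ends of transcripts. A gene is called higher or lower in gof where it had at least 10 CPM in either library, differed by at least 1.5-fold after adding 1 CPM, and had separate intervals. The verbs rose and fell are used only of such genes. Members held a median of 9573 UMIs in control and 6410 in gof, against 8500.5 and 5872 over all kept barcodes. The libraries held 78732126 and 59594082 UMIs in all. They shared 18 barcode sequences, none of them members in both.

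Hem progenitors made up 11.6% of kept control barcodes (10.9% to 12.4%) and 8.20% of kept gof barcodes (7.60% to 8.84%). Before any gene was barred, 1871 control and 1287 gof barcodes had at least 3 of the 6 markers. Of these, a UMI of Fgf8, Fgf17 or Six3, genes of the neighbouring rostral midline, removed 55.5% in control and 44.4% in gof. A UMI of Notum or Dkk1 was read in 3.26% of the control barcodes and 16.2% of the gof barcodes, so the rule took away 61 control and 209 gof barcodes for that reason, 40 and 116 of them with a rostral gene too. With barcodes holding Notum or Dkk1 but no rostral gene let in, there were 832 control and 716 gof barcodes, and the log2 ratio of the shares went from -0.51 to -0.34. The share depends on depth as well as on cell number, since a shallow barcode is less likely to show 3 markers. Thinned to 3000 UMIs per barcode before the rule, the shares were 9.65% and 6.23%.

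The members carried different numbers of the 6 markers. In control 262 had 3, 199 had 4, 201 had 5 and 149 had all 6. In gof 290 had 3, 191 had 4, 102 had 5 and 40 had all 6. The median UMI count rose with the number, from 7662 to 14418 in control and from 5780.5 to 13092 in gof, so the marker number follows depth as well as expression. Barcodes just outside the rule, with 2 markers and none of the barred genes, numbered 747 and 528.

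Some genes that the rule did not use followed the marker number in control, and others did not. Bmp6, a BMP ligand, was read at 10.2 CPM with 2 markers, 28.8 with 3, 68.8 with 4, 81.9 with 5 and 101 with 6. Msx2, a BMP-responsive homeobox gene, went from 7.80 with 2 markers and 18.4 with 3 to 79.9 with 6. Its relative Msx1 had no such order, with 53.3, 71.1, 83.0 and 51.1 CPM from 3 to 6 markers, and Otx2 had 65.9, 90.9, 105 and 86.9. Id3, which encodes an inhibitor of helix-loop-helix factors, went from 2394 with 3 markers to 3714 with 6. The cortical selector gene Lhx2 went the other way, from 512 with 2 and 365 with 3 to 253 with 5 and 263 with 6. In gof Bmp6 ran from 28.3 with 3 markers to 81.3 with 6, Msx2 from 34.8 to 42.9, Id3 from 1828 to 2743 and Lhx2 from 218 to 146. Cyclin D1 and cyclin D2 went in opposite directions in control, Ccnd1 from 105 to 42.2 and Ccnd2 from 244 to 410. The barcodes with the most markers thus had the lowest Lhx2 level in gof and the highest Bmp6 levels in both libraries.

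**Figure D1:**
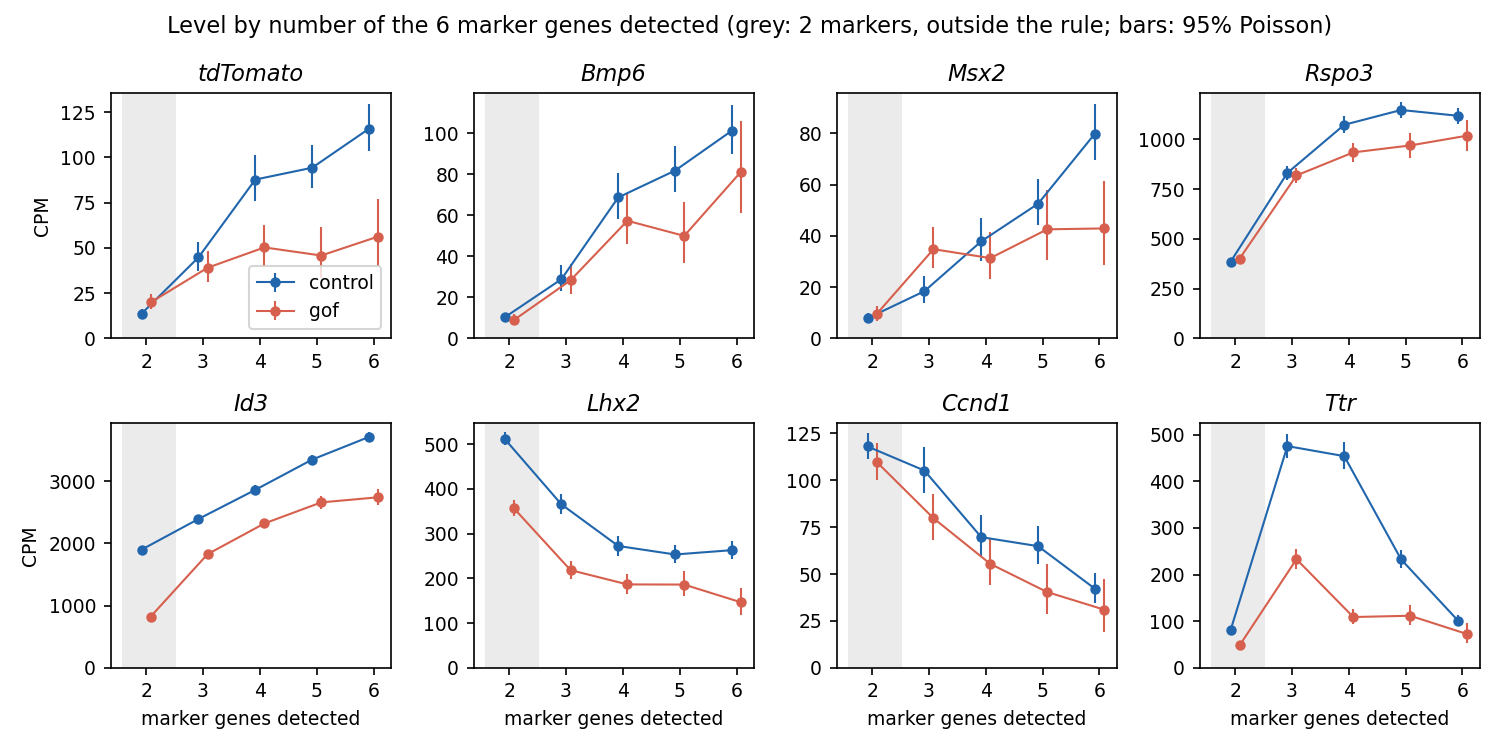
Levels (CPM, y axes from 0) of 8 genes by the number of the 6 marker genes detected (x axis) in E11.5 control (blue) and gof (red) barcodes, with exact 95% Poisson intervals. Barcodes with 2 markers (grey) lie outside the rule. In control Bmp6 runs from 28.8 at 3 markers to 101 at 6, and Ttr from 475 to 101.

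The members differed in the reporter between the libraries. At least 1 tdTomato UMI was read in 408 control members (50.3%, 46.8% to 53.8%) and 164 gof members (26.3%, 22.9% to 30.0%). Thinned to 3000 UMIs the shares were 22.0% and 12.5%, with 7 control and 40 gof members too shallow to be thinned. Pallial barcodes, which had at least 3 of 6 pallial genes, Emx1, Emx2, Lhx2, Dmrta2 and Dmrt3 among them, and neither a hem marker nor a barred gene, showed tdTomato in 7.74% and 7.92% (medians of 6994.5 and 5363 UMIs). Mesenchymal barcodes, with at least 3 of Col1a1, Col1a2, Col3a1, Postn, Lum and Pdgfra and fewer than 3 hem markers, showed it in 5.32% and 6.50% (7544 and 6289 UMIs). The summed tdTomato level was 85.1 CPM in control members and 45.6 in gof members. Among the gof barcodes set aside for Notum or Dkk1, 67.0% held a tdTomato UMI. Over all barcodes with at least 3 markers, before any gene was barred, 51.5% of control (49.2% to 53.8%) and 35.0% of gof barcodes (32.4% to 37.7%) held one, and the level was 74.5 and 62.9 CPM. The log2 ratio of tdTomato, -0.89 in the members, was thus -0.24 with no gene barred, and it was -0.58 with at least 2 markers, both short of 1.5-fold. The size of the reporter difference depends on the barcodes that the rule removes. Lmx1a itself, a rule gene, was read at 95.7 and 55.6 CPM over all members, at 29.2 and 25.97 with 3 markers and at 164 and 117 with all 6.

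Over the members, 8378 genes reached 10 CPM in either library. Of these, 327 were higher in gof (3.9%) and 463 lower (5.53%), and the median log2 ratio of all tested genes was -0.09. With that median set to 0, 466 were higher and 266 lower, so the balance of the 2 directions depends on the scaling. Pallial barcodes had 391 genes higher (4.69%) and 350 lower (4.2%) of 8332. The calls overlapped: 157 of the higher genes were higher in pallial barcodes too, 48.0% of the hem calls and 40.2% of the pallial calls, and 142 of the lower genes were lower there, 30.7% and 40.6%. Both sets come from the same pair of libraries. Of 89 named genes that were called in members, 23 stayed past 1.5-fold in all of 15 other settings: Boc, Cdh4, Col3a1, Creb5, Ctla2a, Dlgap1, Dusp6, Fzd9, H1f4, H1f5, Hes5, Hist1h2ap, Id1, Map1b, Mcidas, Osbpl7, Peak1, Rpgrip1, S100a11, Spry2, Srrm4, Tex14 and Trpm3. The others fell short in at least 1. Only the size of the ratio was checked in these settings, not the minimum level or the separate intervals. The settings with another minimum level leave the ratio of a gene as it was, so no gene could fall short in them. Ctla2a had most of its gof UMIs in 1 barcode, as given below.

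Of 19 Wnt ligand genes 7 were measured, and 3 of these served in the rule, so that both libraries had to show them. As a description, Wnt8b was at 252 and 248 CPM in control and gof, Wnt3a at 54.3 and 52.0, and Wnt9a at 95.6 and 119. Of the 4 measured ligands that the rule did not use, 1 fell and none rose, with a median log2 ratio of -0.30 against -0.09 over all genes. Wnt7b was at 53.0 and 60.7 CPM, Wnt5b at 43.8 and 33.2 and Wnt4 at 13.1 and 11.1, none of them past the limits. Wnt5a, a ligand best known for signalling that does not need beta-catenin, was at 41.0 CPM in control and fell by 0.64 on the log2 scale. Wnt5a stayed past 1.5-fold in 8 of 15 other settings. Wnt2b, another hem ligand, was near the floor, with 20 UMIs in control and 3 in gof.

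R-spondin genes are read strongly in the hem. Rspo3, the measured R-spondin that the rule did not use, was not called and was read at 1039 CPM in control and 905 in gof members, and at 315 and 208 in pallial barcodes. At 3000 UMIs a Rspo3 UMI was found in 87.6% of control and 83.9% of gof members, in 35.9% and 25.7% of pallial barcodes and in 7.42% and 8.36% of mesenchymal barcodes. As a description, the rule genes Rspo1 and Rspo2 were at 506 and 488 CPM and at 605 and 501 CPM. Wls, which carries Wnt proteins to the cell surface, was at 425 and 380 CPM, and Sulf1, an extracellular sulfatase that trims heparan sulfate, at 241 and 225.

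Of 18 Wnt receptor genes 10 were measured, none rose and 2 fell: Fzd9 from 16.4 to 9.23 CPM and Fzd10 from 18.8 to 12.1. Fzd10 was no longer lower once barcodes with Notum or Dkk1 were let in (log2 0.031). Over all genes tested 3.9% were higher and 5.53% lower. Of 17 genes of the beta-catenin machinery 15 were measured and 2 fell: Amer1, a scaffold of the destruction complex, from 27.2 to 13.2 CPM, and Tcf7l1, a Tcf factor that mostly represses, from 37.2 to 21.9. Ctnnb1, which encodes beta-catenin, was at 282 and 244 CPM. This is a 3' count and does not check the allele.

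Most classic Wnt target genes stayed within the limits in the members. Of 20 targets 10 were measured, 1 was higher, none was lower, and the median log2 ratio was -0.18. Of all genes tested, 3.9% were higher and 5.53% lower. Axin2, a negative regulator that serves as the standard readout of the pathway, was read at 105 CPM in control (98.6 to 111) and 87.8 in gof (80.0 to 96.1). Lef1 was at 93.3 and 84.6 CPM, Sp5 at 95.7 and 93.6, and Nkd1 at 44.8 and 41.5. Wif1, a secreted Wnt inhibitor, rose from 7.62 to 12.6 CPM, on 78 and 67 UMIs, and with the marker minimum lowered to 2 its log2 ratio was -0.067. With Notum and Dkk1 barcodes let in, the median over the targets was 0.14, and with no gene barred it was 0.31. The direction of the list thus depends on the rule.

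With the members divided by the reporter, 1 of 10 measured targets was called among reporter-positive members, Wif1, and the median log2 ratio was 0.0061. Among reporter-negative members 2 of 9 were called, Znrf3 (75.2 and 48.8 CPM) and Bambi (48.9 and 31.8), both lower in gof, with a median of -0.38. Of all genes tested, 3.58% were higher and 5.01% lower among reporter-positive members, and 4.21% and 5.07% among reporter-negative ones. Sp5, a Wnt-induced zinc finger factor, was read at 143 CPM (125 to 163) in reporter-positive gof members against 95.7 in reporter-positive control members, which was not past the limits. In reporter-negative members it was at 73.5 CPM in gof and 95.6 in control. Wif1 was at 22.1 against 7.23 CPM among reporter-positive members and at 8.75 against 8.11 among reporter-negative ones. Axin2 was at 111 against 113 CPM among reporter-positive and 78.5 against 94.0 among reporter-negative members. The difference between members with and without the reporter was not tested. A barcode without a tdTomato UMI may still come from a recombined cell, because the reporter was read at a low level.

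The gof barcodes that the rule set aside for a Notum or Dkk1 UMI had higher target levels. In those 209 barcodes Axin2 was at 204 CPM, Sp5 at 276, Lef1 at 187, Nkd1 at 181, Wif1 at 120 and Apcdd1, a membrane inhibitor of Wnt signalling, at 118. The 61 control barcodes set aside for the same reason had Axin2 at 89.8 CPM and Sp5 at 94.9. These 61 and 209 barcodes had median UMI counts of 23146 and 12831, above those of the members. The Notum or Dkk1 UMI that chose these barcodes is itself a readout of the pathway, so their target levels are a description. Barcodes with at least 3 markers and a rostral gene, but no Notum or Dkk1 UMI, numbered 999 in control and 455 in gof. They had Axin2 at 105 CPM in control and 124 in gof, Sp5 at 78.8 and 107, Lef1 at 76.9 and 73.6, and Nkd1 at 34.3 and 42.1.

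**Figure D2:**
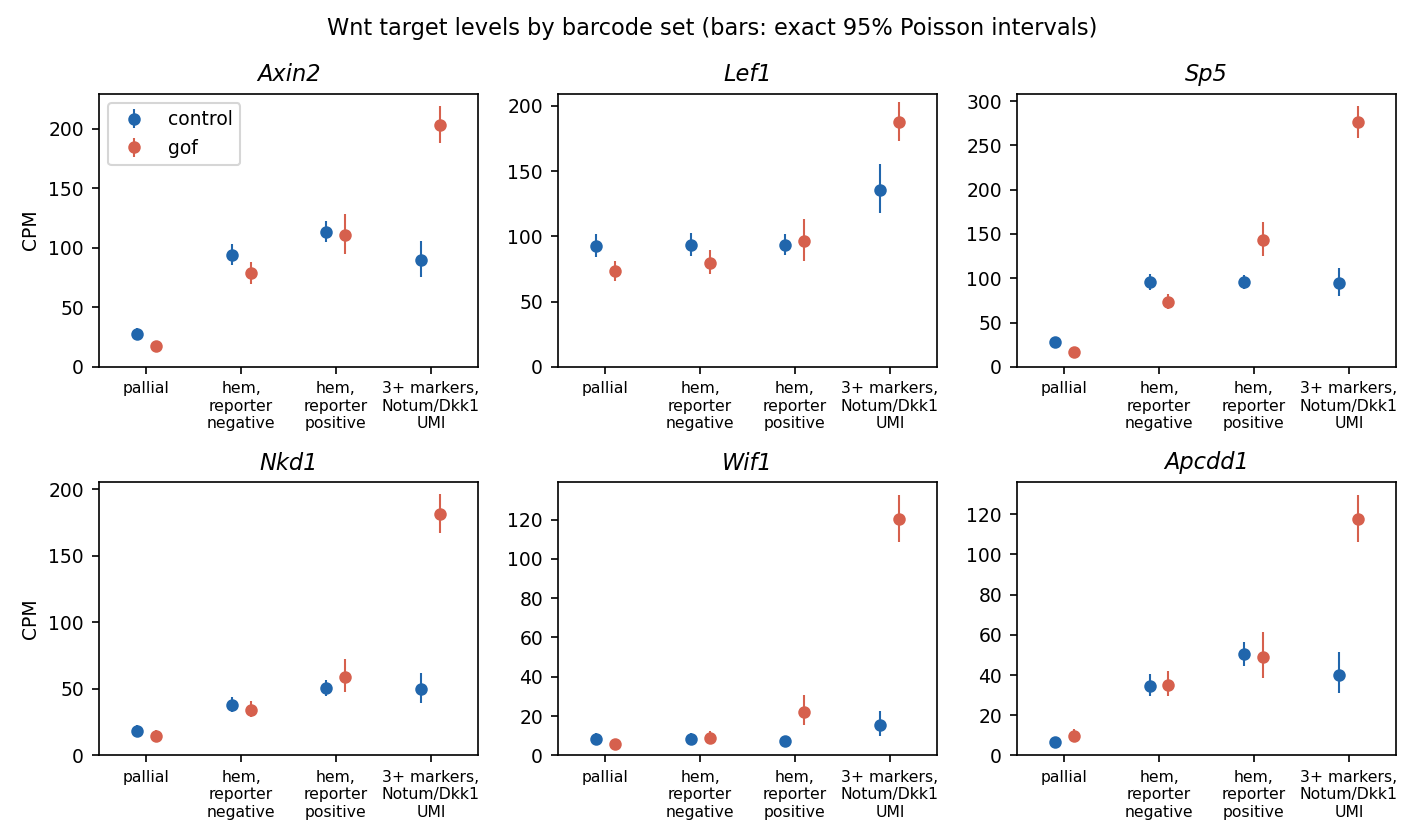
Levels (CPM, y axes from 0) of 6 Wnt target genes in 4 sets of E11.5 barcodes (x axis), control blue and gof red, with exact 95% Poisson intervals. Among gof barcodes with 3 or more hem markers, those with a Notum or Dkk1 UMI, which are not members, have Axin2 at 204 CPM, against 111 in reporter-positive and 78.5 in reporter-negative members.

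BMP ligands did not pass the limits in either direction. BMPs are the other signal of the hem, act through Smad factors and induce Id and Msx genes in the dorsal midline. Bmp4 was read at 55.9 and 67.3 CPM in control and gof, Bmp5 at 43.8 and 43.5, Bmp6 at 69.9 and 47.3, and Bmp7 at 44.2 and 39.8. Among 9 measured receptor and Smad genes, only Smad1 was called, falling from 40.4 to 23.0 CPM, and on counts thinned to 3000 UMIs its log2 ratio was -0.064.

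Of 10 measured BMP targets and antagonists, 1 fell and none rose, and the median log2 ratio was -0.50. Id1, an inhibitor of helix-loop-helix factors, fell from 406 CPM (394 to 419) to 161 (151 to 172), a log2 ratio of -1.33. It was lower in pallial barcodes too (83.0 and 15.5 CPM). Its relative Id3 was at 3083 and 2235 CPM in members, within the limits (log2 -0.46), but fell from 687 to 130 CPM in pallial barcodes (log2 -2.39). Msx1 was at 64.0 and 67.6 CPM and Msx2 at 47.4 and 36.2. Among reporter-positive members alone 4 of 10 were lower, Id1, Id3 (3307 and 2097 CPM), Id4 and Smad7. Among reporter-negative members 3 of 10 were lower, Id1, Id4 and Bambi. Over all genes tested 5.01% and 5.07% were lower in these sets. The difference between the sets was not tested.

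**Figure D3:**
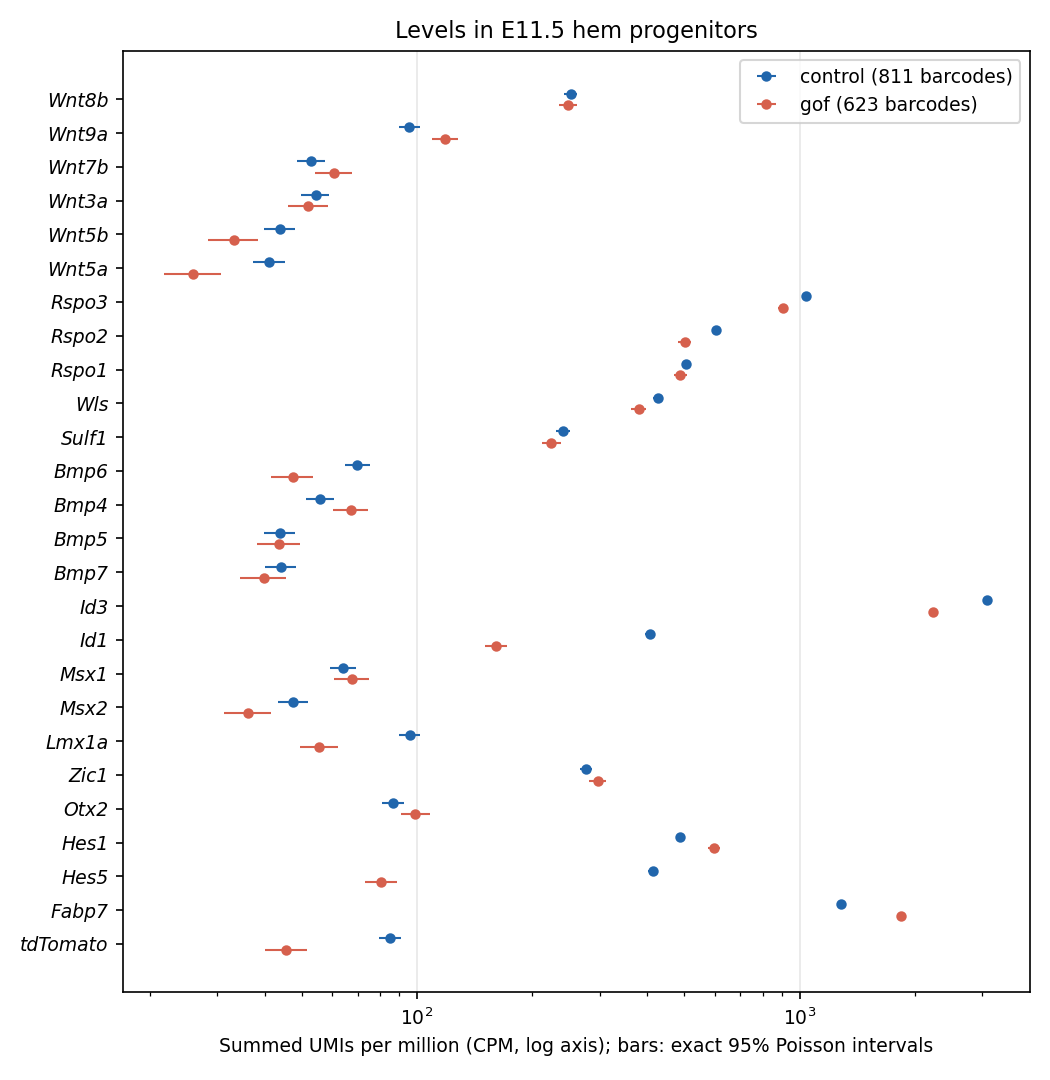
Levels in CPM (log x axis) of hem signalling genes, regulators and the tdTomato reporter in E11.5 hem progenitors of the control library (blue) and the gof library (red), with exact 95% Poisson intervals. The levels of Bmp5 (43.8 and 43.5 CPM) lie close together, while those of Hes5 (415 and 80.5) and Id1 (406 and 161) lie apart. Wnt8b (252 and 248), Wnt9a, Wnt3a, Rspo1, Rspo2 and Lmx1a are rule genes and are shown as a description.

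Notch signalling between neighbouring cells keeps neural progenitors from differentiating and works through Hes and Hey repressors. Hes5, one of these repressors, fell from 415 CPM (403 to 428) to 80.5 (73.0 to 88.5). Its log2 ratio of -2.35 was the lowest of the ranked genes of at least 50 CPM in members. The gene classes left out of the ranking are named with the processing. At 3000 UMIs a Hes5 UMI was found in 62.3% of control members and 19.0% of gof members. Pallial barcodes showed a similar fall, from 294 to 39.3 CPM (log2 -2.87), and the share of mesenchymal barcodes with a UMI, which should lack the gene, went from 7.58% to 1.81%. Hes5 was lower in reporter-positive members (411 and 78.1 CPM) and in reporter-negative members (420 and 81.4). It stayed past 1.5-fold in all 15 other settings.

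Hes5 was not followed by its relative. Hes1 was at 488 and 597 CPM, within the limits. Of 13 measured Notch pathway genes, none rose and 4 fell: Hes5, the related repressor Hey1 from 88.7 to 50.7 CPM, the receptor Notch1 from 48.4 to 30.7, and the ligand Dll1 from 56.8 to 32.4. On thinned counts Hey1 had a log2 ratio of -0.35. The receptor Notch2 was at 168 and 235 CPM and Rbpj, the DNA-binding partner of activated Notch, at 76.8 and 66.7, with neither called. The median over the list was -0.33, and 5.53% of all genes tested were lower.

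The Hes5 promoter is shown because this gene had the lowest ratio of the ranked genes in members. The window runs from 250 bases before to 50 after the start of the gene in RefSeq (GRCm38.p6, chr4:154960673-154960972, plus strand, the build of the mm10 genome named in the submitters' notes). Capitals mark 2 matches to the RBPJ motif, searched as GTGGGAA and, on the other strand, TTCCCAC. These matches are a description of the letters, and 2097 of 32851 mouse promoter windows of this length (6.38%) hold at least 1. The window of Nrarp, another Notch target (65.4 and 45.2 CPM), had none.
Hes5 promoter: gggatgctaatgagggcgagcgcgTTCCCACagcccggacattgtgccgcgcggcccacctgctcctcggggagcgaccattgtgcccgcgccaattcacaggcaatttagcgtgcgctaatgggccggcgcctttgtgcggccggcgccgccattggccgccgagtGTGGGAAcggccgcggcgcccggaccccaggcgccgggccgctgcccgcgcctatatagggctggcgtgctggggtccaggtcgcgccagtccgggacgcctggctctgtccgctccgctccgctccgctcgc

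Genes of the FGF response stood on the other side. FGF signals act through MAP kinase and induce the inhibitors Spry1, Spry2 and Dusp6 and the factors Etv1, Etv4 and Etv5. Of 12 measured FGF pathway genes these 6 rose in gof, none fell, and the median log2 ratio was 0.45. Over all genes tested 3.9% were higher. Spry2 rose from 42.4 CPM (38.5 to 46.6) to 107 (98.4 to 116), Dusp6 from 19.6 to 34.3, Etv5 from 19.2 to 32.6, Etv1 from 21.6 to 34.5, Spry1 from 25.7 to 39.6 and Etv4 from 7.43 to 12.8. The receptors Fgfr1 (56.2 and 52.0 CPM), Fgfr2 (138 and 116) and Fgfr3 (19.8 and 24.7) were not called. In pallial barcodes 4 of 10 measured members rose, with Spry2 at 50.6 and 127 CPM and Dusp6 at 9.13 and 20.1. Spry2 and Dusp6 stayed past 1.5-fold in all 15 other settings, Spry1 in 10. The rule removes barcodes that show the ligands Fgf8 or Fgf17, and over the few list genes of at least 50 CPM the median was -0.11.

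Cortical patterning genes were lower in part, where 5.53% of all genes tested were lower. Of 18 measured genes 6 fell and none rose, with a median log2 ratio of -0.42: Nfib fell from 499 to 304 CPM, Tcf4 from 698 to 429, Emx2 from 223 to 142, Emx1 from 95.6 to 60.9, Dmrt3 from 73.5 to 45.4 and Ephb1 from 24.7 to 11.1. Emx2 and Emx1 encode homeobox factors of the dorsal cortex, and Dmrt3 a factor of the medial pallium. Emx2, at -0.65, fell short of 1.5-fold in 5 of 15 other settings, down to -0.32 on thinned counts. Pallial barcodes were themselves chosen on 6 genes of this list. Of the 11 measured there that did not choose them, 3 fell, Nfib, Nfix and Fezf2, with a median of -0.037. Lhx2 was at 290 and 194 CPM in members, just inside the limits (log2 -0.58). Nr2f1 (85.3 and 128 CPM) and Nr2f2 (153 and 208), nuclear receptors of the caudal cortex, were not called.

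Of 14 measured transcription factors of the dorsal midline that the rule did not use, Lhx5 rose from 14.2 to 24.3 CPM, Lhx9 fell from 24.4 to 15.8, and the median log2 ratio was 0.066. Lhx9 stayed past 1.5-fold in 7 of 15 other settings. Zic1 was at 276 and 297 CPM, Zic4 at 101 and 116, Otx2 at 86.8 and 99.1, and Gli3, whose repressor form the hem needs, at 247 and 178. In pallial barcodes Otx2 rose from 10.4 to 36.0 CPM and Zic4 from 40.0 to 61.6.

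Neurogenic genes fell in 2 of 9 cases, with a median log2 ratio of -0.44. Over all genes tested 5.53% were lower. Neurog2, a proneural factor, fell from 123 CPM to 76.7, but with Notum or Dkk1 barcodes let in its log2 ratio was -0.35. It stayed past 1.5-fold in 10 of 15 other settings. Neurog2 fell in pallial barcodes too, as 1 of 11 measured neurogenic genes, against 4.2% of all genes tested there. Eomes, a factor of committed precursors, fell from 14.7 to 6.97 CPM in members, on 150 and 37 UMIs, and was at 78.2 and 77.7 in pallial barcodes. Pan-neuronal genes were low among members and 2 of 8 fell, Elavl3 from 39.5 to 20.9 CPM and Elavl4 from 93.3 to 59.0. Tubb3 was at 135 and 108 CPM, against 542 and 550 in pallial barcodes.

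Cajal-Retzius genes moved in both directions. Trp73, which marks hem-derived Cajal-Retzius cells and acts in them, fell from 20.1 to 10.7 CPM, and Ebf2 from 30.0 to 15.1. A Trp73 UMI was read in 76 of 811 control and 27 of 623 gof members, and at 3000 UMIs in 4.98% (3.58% to 6.71%) and 2.06% (1.07% to 3.57%). Pallial barcodes had Trp73 at 40.7 and 37.5 CPM. Ebf1 rose from 17.7 to 30.0 CPM, along with Lhx5. Reln, which encodes reelin, was at 19.3 and 20.5 CPM. Without the barcodes that hold RNA of another cell type, defined below, the log2 ratio of Ebf1 was 0.34, short of the limit. Fewer cells on the way to this fate and less RNA per cell cannot be told apart in these sums.

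Choroid plexus genes are of interest because the hem borders that tissue. Ttr encodes transthyretin, which choroid plexus epithelium secretes, and fell from 311 to 155 CPM, and Trpm3, a channel gene, from 87.6 to 44.3. Ttr UMIs were concentrated: 99 control and 61 gof members held any, and 1 gof barcode held 319 of the 823 gof UMIs. Without the top barcode of each library the levels were 284 and 95.1 CPM (log2 -1.57). With the stricter limits of 2000 genes and 5% mitochondrial UMIs the log2 ratio was -0.11. Folr1 (28.1 and 26.4 CPM) and Clic6 (28.3 and 25.4) were not called, and Kl, a marker of mature choroid plexus, had no UMI in either library. In control the Ttr level ran from 475 CPM with 3 markers to 101 with 6.

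Multiciliated cells are a feature of choroid plexus epithelium. Of 9 measured cilia genes 4 fell and none rose, with a median log2 ratio of -0.58, against 5.53% lower over all genes tested. In pallial barcodes 3 of 9 fell, Mcidas, Arl13b and Rfx2, with a median of -0.50. Mcidas, which starts the multiciliated programme, fell from 13.3 to 3.20 CPM (136 and 17 UMIs), and Ccno from 11.2 to 4.71. Foxj1, the main factor of motile cilia, fell from 21.3 to 13.2 CPM, and Arl13b, a small GTPase of the ciliary membrane, from 24.6 to 14.7. Foxj1 stayed past 1.5-fold in 7 of 15 other settings. Mcidas stayed past 1.5-fold in all 15. Among reporter-positive members 6 of 9 measured cilia genes were lower, and among reporter-negative members 1 of 7. Over all genes tested 3.58% were higher and 5.01% lower among reporter-positive members, and 4.21% and 5.07% among reporter-negative ones. The difference between these sets was not tested.

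**Figure D4:**
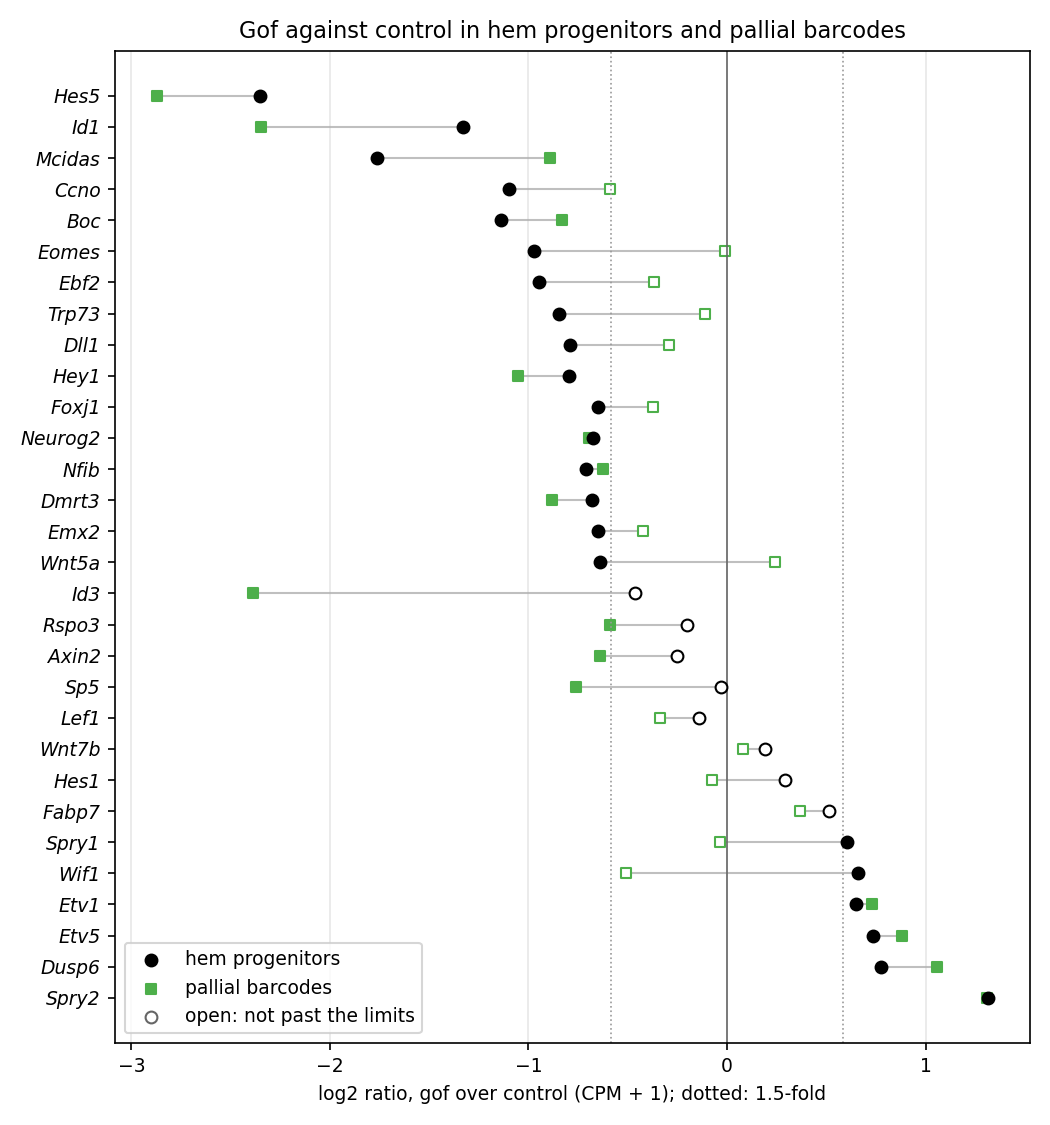
Log2 ratios of gof over control (x axis, after adding 1 CPM) for 30 genes in hem progenitors (circles) and pallial barcodes (squares). Filled symbols passed the limits and dotted lines mark 1.5-fold. Hes5 lies at -2.35 and -2.87, Id3 at -0.46 and -2.39, and Spry2 at 1.32 and 1.31.

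Cell cycle genes stayed within the limits. None of 30 measured S phase genes and none of 29 measured G2 and M phase genes was called, with medians of -0.10 and -0.04, close to that of all genes. Pcna was at 230 and 231 CPM, Top2a at 280 and 272, and Mki67 at 62.2 and 51.6. Ccnd2 was at 337 and 263 CPM and Ccnd1 at 70.8 and 59.5. Of 8 measured D-type cyclins and cell cycle inhibitors, only Cdkn1a was called, falling from 38.6 to 18.7 CPM, and with no gene barred its log2 ratio was 0.12.

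Genes of neuroepithelial progenitors were nearly all within the limits. Of 12 measured, Sox9 fell from 300 to 198 CPM, and Sox2 was at 258 and 208. Fabp7, a fatty acid carrier of radial glia, was at 1286 and 1836 CPM (log2 0.51), not called over all members. Among reporter-positive members alone Fabp7 was called higher and Sox9 lower. Among reporter-negative members alone Fabp7 was called higher and Sox1 lower. Of 11 measured junction genes 3 fell: Cdh4 from 71.5 to 41.1 CPM, Cdh6 from 61.3 to 39.0, and Pard3, an apical polarity gene, from 154 to 94.2. Cdh2, the main cadherin of the neuroepithelium, was at 334 and 329 CPM. Over all genes tested 5.53% were lower. Of 8 measured Shh pathway genes the co-receptor gene Boc fell, from 35.3 to 15.5 CPM, with a list median of -0.40. Of 12 glycolysis and hypoxia genes Vegfa rose from 11.9 to 19.8 CPM, with a median of 0.23.

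By the size of the ratio alone, histone genes stood beside Hes5, Id1 and Ttr among the 12 lowest: H1f5 fell from 352 to 86.3 CPM, Hist1h2ap from 127 to 40.1 and H1f4 from 52.5 to 22.8. Pallial barcodes had H1f5 at 364 and 80.3 CPM and Hist1h2ap at 104 and 32.7. Members of histone families are near-identical, and 3' reads of such genes can be split between copies. Srrm4, a neural splicing regulator, fell from 52.6 to 16.0 CPM, and Map1b, which encodes a microtubule-associated protein, from 516 to 260. The other low genes were Cadps, Creb5, Tecpr2 and Csrnp3, with log2 ratios from -1.13 to -1.01.

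Among the 12 highest ratios, Osbpl7 rose from 40.7 to 227 CPM, Peak1 from 23.4 to 99.3, Pdgfrl from 23.0 to 94.8, Dlgap1 from 13.8 to 56.0 and Rpgrip1 from 21.7 to 82.5. All 5 rose in pallial barcodes too, Osbpl7 from 32.4 to 330 CPM and Peak1 from 11.4 to 72.0. S100a11, Pbld1, Tex14 and Spry2 had log2 ratios from 1.16 to 1.32. The other 3 are known from other cell types. Pf4, a platelet gene, was at 13.0 and 379 CPM, with 1877 of its 2009 gof UMIs in 1 barcode. Ctla2a, known from endothelial and blood cells, was at 0.782 and 73.7 CPM, with 358 of 391 gof UMIs in 1 barcode. Its log2 ratio, 5.39 in the members, went down to 1.12 over the other settings. Col3a1, a fibrillar collagen, was at 21.0 and 104 CPM, read in 36 control and 63 gof members.

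RNA of other cell types differed between the libraries in the members. The 12 mesenchymal markers summed to 127 CPM in control and 292 in gof, with 5 of 6 measured markers higher, and the 9 erythroid markers to 2974 and 7511, with 6 of 7 higher. Of all genes tested, 3.9% were higher. Pallial barcodes had 4 of 5 measured mesenchymal markers higher. Among 9 measured erythroid markers there, 6 were higher and 1 lower, against 4.69% and 4.2% of all genes. The 8 endothelial markers summed to 20.4 and 52.8 CPM and the 6 microglial markers to 9.28 and 21.9. No marker of these 4 lists was at 0 in either library, although Cdh5 (10 and 27 UMIs), Pecam1 (19 and 34) and C1qa (5 and 17) were near it. By a limit set after the data had been seen (at least 5 mesenchymal, 3 endothelial or 3 microglial markers, or over 1% erythroid UMIs), 26 control members (3.21%) and 41 gof members (6.58%) held such RNA. Without them 289 genes were higher and 454 lower, of which 245 and 385 were also called with them. Hes5, Id1, Spry2 and Mcidas stayed past 1.5-fold without them. So did the mesenchymal genes Col3a1 (log2 1.90), Col1a2 (0.89), Lum (1.30) and Foxd1 (1.57) and the haemoglobin genes Hba-a1 (1.06), Hba-a2 (1.05), Hba-x (1.02), Hbb-bh1 (1.18) and Hbb-y (0.95), while Col1a1 (0.29), Hbb-bt (0.28), Egfl7 (0.14), Lgals1 (0.41) and Cd9 (0.22) did not. Leaving those barcodes out thus left most called mesenchymal and erythroid genes past 1.5-fold. The part of free RNA in the other values was not tested.

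Genes that led the members over pallial barcodes, given as a description since the markers chose both sets, included Ttr, Sulf1, Zfp804b, Bmp4, Slit3, Lrp1b, Ezr, Wls, Pcsk1n, Tpbg, Lmo2, Khdrbs2, Id1, Colec12 and Id3. Sulf1 was at 241 CPM in control members and 7.47 in control pallial barcodes, and at 225 and 8.29 in gof. Slit3, a secreted guidance cue, was at 56.9 and 3.53 CPM in control, and at 53.9 and 5.24 in gof. Ezr, which links actin to the apical membrane, was at 537 and 65.7 CPM in control, and at 436 and 62.6 in gof. Of these 15 genes, Ttr, Id1 and Lmo2 (252 and 163 CPM in members) were lower in gof, and the other 12 were not called.

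Among genes of at least 50 CPM that were called in members, some had ratios far from those in pallial barcodes. Genes not called in members, such as Id3 and Otx2 above, were not ranked. Ldb2, a cofactor of LIM factors, fell from 58.4 to 33.9 CPM in members and was at 8.71 and 11.6 in pallial barcodes. Casz1 fell from 71.0 to 41.8 CPM, Masp1 from 53.3 to 31.3 and Gadd45b from 51.5 to 29.8, and all 3 were between 9.13 and 13.97 CPM in pallial barcodes. Cacna2d1 fell from 58.5 to 31.5 CPM in members and was at 225 and 222 in pallial barcodes. Cd9 and Lgals1 rose in members, from 37.7 to 71.0 and from 40.3 to 78.2 CPM, and stayed within the limits in pallial barcodes. For Cd9, 139 of 377 gof UMIs were in 1 barcode, and without the top barcode of each library its log2 ratio was 0.27. These differences between the 2 sets were not tested.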

How the data were processed

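The authors deposited raw UMI counts per gene and barcode for each library, made with Cell Ranger 7.1.0 per the file headers on mm10 per the submitters' processing notes. No source used here names the gene annotation. There were 21937 features, tdTomato among them, and barcodes held at least 500 UMIs.

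Groups came from the labels, with 1 library each. The members, the 31 gene lists and the comparison sets were chosen with earlier results of these data known. UMIs were summed over the barcodes of a set and scaled to CPM, with exact Poisson intervals (scipy 1.17.1, numpy 2.4.6, pandas 2.3.3, Python 3.11.15). Log2 ratios used a pseudocount of 1 CPM, and a list's median was taken over members of at least 10 CPM in either library. Of 431 listed genes 429 had a single row, and 67 features share a symbol. For detection shares barcodes were thinned to 3000 UMIs with fixed random seeds. Scrublet, run through scanpy 1.11.5, called 2 and 2 doublets among the E11.5 barcodes. Why it called so few was not examined, and these calls were not used. No doublets were removed, and removing the highest scores at 0.8% per 1000 barcodes was an alternative. Free RNA was not removed.

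The text names the 12 highest and 12 lowest ratios of at least 50 CPM past the limits, members of the fixed lists, the 15 genes leading over pallial barcodes, the 8 genes on either side that differ most from the pallial ratio, tdTomato and Ctnnb1. Genes for haemoglobins, mitochondrial and ribosomal genes, Y-linked genes and genes named after clones were left out of the ranked parts. The calling rule was run on simulated Poisson counts drawn from the pooled profile of the members, without variation between embryos or barcodes. Its intervals assume the same model, so that run does not check the calls in these data. Alternatives changed the marker number, the barred genes, the quality limits, doublets, thinning, scaling, pseudocount, minimum level and reporter. The values of 1 gene are not reported here. The E14.5 libraries were not used in any comparison.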

Additional observations from a re-analysis of the deposited data

Results flagged for a closer look

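In all, 5 genes were called in opposite directions in 2 sets of barcodes under the same contrast of gof over control, and the differences themselves were not tested. Between reporter-positive and reporter-negative members, Ebf1 had log2 ratios of -0.85 (24.3 and 13.0 CPM, control and gof) and 1.86 (9.43 and 36.9 CPM). Ttr had 0.59 (242 and 363 CPM) and -2.48 (396 and 70.3 CPM), and without the top barcode of each library the reporter-positive ratio was -0.45, since 1 gof barcode held 319 of 558 Ttr UMIs. Mab21l3 had -1.47 (10.8 and 3.25 CPM) and 2.13 (1.53 and 10.1 CPM), with 44 of 61 reporter-positive control UMIs and 22 of 38 reporter-negative gof UMIs in 1 barcode each. Without the top barcodes its levels were 3.02 and 1.30 CPM (log2 -0.80) and 1.10 and 4.26 CPM (log2 1.32), all under the minimum of 10 CPM, so that neither call would stand. Plekhm2 had -1.30 (14.3 and 5.21 CPM) and 1.41 (9.87 and 27.8 CPM), and without the top barcodes, 1 of which held 76 of 105 UMIs, the latter was -0.26. Between members and pallial barcodes, St8sia2, which encodes a polysialyltransferase, had -0.63 (27.7 and 17.5 CPM) and 0.88 (20.9 and 39.3 CPM), the latter 0.54 without the top barcodes.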

How the results depend on the processing

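The log2 ratio of the member share, -0.51, was -0.85 with at least 4 markers, -0.34 with Notum or Dkk1 allowed, -0.66 with no gene barred and -0.29 under stricter quality limits (2000 genes, 5% mitochondrial). The 327 genes higher in gof became 196 on thinned counts, 86 at a minimum of 50 CPM and 722 with no minimum. The 463 lower genes became 263 with no gene barred, 266 with the median set to 0, 307 with a pseudocount of 5 CPM and 184 at 50 CPM. Medians were below 0 for 22 lists, and for 17 to 24 in the other settings. In the members the median of all tested genes was itself -0.09. Some of the 22 lists lay above that, such as G2 and M phase (-0.04) and BMP ligands (-0.08). The Wnt ligand and R-spondin lists were counted with their rule genes.

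Several called genes changed direction. Wif1 was at -0.067 with at least 2 markers. Fzd10 was at 0.031 with Notum or Dkk1 allowed and 0.47 with no gene barred, where Cdkn1a was at 0.12 and Hbb-bt at -0.35. Among reporter-positive members alone Ebf1 was at -0.85, Egfl7 at -0.55, Pbld1 at -0.17, Ttr at 0.59 and tdTomato, on which that set was chosen, at 0.037. The causes were not tested, except that a minimum level changes the number of genes tested and thinning lowers the counts. Removing barcodes with RNA of other cell types and the top barcode of a gene were added after seeing the data. Gof members were shallower, which limits genes near 10 CPM. No paired analysis was possible because each group holds 1 library. With 1 pool per group, the variation between embryos is unknown.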

Other observations

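At E14.5, with 3 embryos per pool, 640 of 7069 kept control barcodes and 110 of 5572 kept gof barcodes met the same rule, at median depths over all kept barcodes of 13166 and 14354.5 UMIs. The 2 ages differ in depth and in tissue, so these counts are given as values.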
